A study of Rattus norvegicus with 31 samples.

Results

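Glycolysis, the pyruvate dehydrogenase complex and the citrate cycle were followed through 35 genes, of which 32 were measured in CA3 of aged rats. The genes were chosen by name for their place in the pathway, with earlier results of these data known. Each was read from the probesets that the array annotation gives to that gene alone. These were 46 of the 16204 probesets in the table, and the 32 genes were among 9037 named genes. A probeset is a group of short probes, most often from the 3′ end of the mRNA, and its signal is given on the log2 scale. For 23 genes there was 1 probeset and for 9 there were more, in which case the one of highest mean over all arrays stands for the gene unless another is named. Pyruvate kinase (Pkm) was read only by a probeset shared with a pseudogene, and for Dlat and Fh no probeset of their own was listed, so these 3 genes were not counted.

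The rats were male Long-Evans rats aged 24 months and were classed as aged unimpaired (AU) or aged impaired (AI) by a learning index from earlier hidden-platform training in the water maze. In a single later session all rats swam 8 trials to a visible platform. In the spatial task (S) the platform stayed in place among extramaze cues, and in the non-spatial task (NS) it was moved between trials and the cues were taken away. All rats then had a probe trial without the platform. CA3 was dissected by hand just after it, about 2 hours after task onset, and each array held the RNA of 1 rat. After the spatial task there were 8 AU-S and 8 AI-S rats, after the non-spatial task 8 AU-NS and 7 AI-NS rats, and AU-act (16) and AI-act (15) pool both tasks within a phenotype. No group without training and no young rats were analysed here, so a difference between AU and AI cannot be split into a resting level and a response to training. Rats were classed by performance and not assigned to a phenotype. In tissue of mixed cells, fewer cells of a type and less RNA per cell cannot be told apart.

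Glycolysis cuts glucose into pyruvate in the cytosol. Hexokinase and phosphofructokinase commit the sugar to the path, aldolase and triosephosphate isomerase make and balance the triose phosphates, and the lower steps recover ATP and NADH. Lactate dehydrogenase interconverts pyruvate and lactate, and the pyruvate dehydrogenase complex turns pyruvate into acetyl-CoA inside the mitochondrion, under the control of kinases (Pdk) that switch it off. Citrate synthase then opens the citrate cycle, whose dehydrogenases feed the respiratory chain. In brain, neurons draw much of their ATP from this path, astrocytes make lactate, and pyruvate carboxylase is known mainly as an astrocyte enzyme.

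Array medians lay between 8.97 and 9.14. Neuronal markers were high on all arrays (7 of 7 measured), with mean scores between 13.28 and 13.57, and 3 of 7 CA3 pyramidal markers were measured (Grik4, Bok and Nectin3), with mean scores from 10.09 to 10.73. Markers of the neighbouring fields were present too, with 3 of 8 dentate granule markers and 5 of 6 CA1 markers measured. The array carries control probesets along 3 transcripts, beta-actin, Gapdh and hexokinase, and the signal at the 3′ end exceeds that at the 5′ end by more when RNA or its copies are shorter. The annotation assigns the Gapdh and hexokinase controls to Gapdh and Hk1, so only beta-actin lies outside the gene list. Its 3′ minus 5′ difference averaged 2.71 ± 0.14 in AU-act rats (SD, n = 16) and 2.92 ± 0.16 in AI-act rats (SD, n = 15), with a two-sided permutation p of 0.00032. Every AU minus AI value below therefore stands beside a control that differed between the same rats.

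The first question was whether genes of energy metabolism differ between AU-act and AI-act rats. Triosephosphate isomerase (Tpi1), the muscle and platelet forms of phosphofructokinase (Pfkm, Pfkp) and pyruvate carboxylase (Pc) were higher in AU-act, by 1.08 to 1.14 fold, and no gene of the list was lower. Thus 4 of 32 genes passed the test (limma, Benjamini-Hochberg adjusted p under 0.05 over all probesets), where 2.05% of all named genes passed as higher, 0.31% as lower and 2.36% passed in either direction. The sign was positive for 30 of 32 genes, with a median difference of 0.071 on the log2 scale, whereas 51.7% of all named genes were positive, with a median of 0.0032. Another 10 genes had an unadjusted p under 0.05, all with a positive difference, which made 14 of 32 genes (43.8%) against 14% of all named genes. These genes share arrays and RNA samples and are not independent of each other. The list was also drawn up with earlier results of these data known, so the counts are descriptive. Over all probesets of the genes, 9 of 46 were higher in AU-act, against 5% of all probesets as higher and 5.51% in either direction. Among the 9 are all the hexokinase control probesets, read from Hk1 alone, and both a brighter and a dimmer Pfkm probeset. They are therefore not separate genes.

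**Figure D1:**
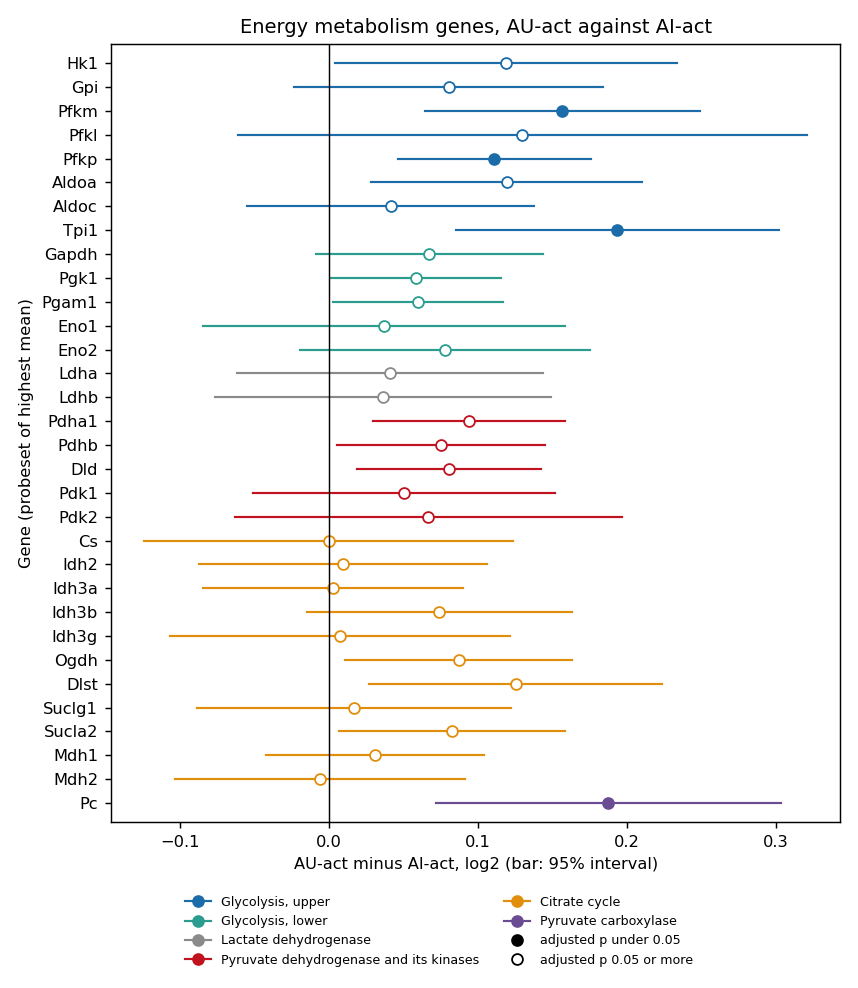
Difference of each gene between AU-act (16 arrays) and AI-act (15 arrays) at its probeset of highest mean, on the log2 scale, with 95% intervals; colours mark the pathway groups and filled points passed the test. Tpi1, Pfkm, Pfkp and Pc are filled, and 30 of 32 points lie right of 0.

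Upper glycolysis held most of the genes that passed, 3 of 8 measured, and all 8 had a positive difference (median 0.12). Tpi1 (probeset 1367603_at), which interconverts the triose phosphates, had signals of 13.34, 13.59 and 13.81 in AU-act (lowest, median, highest) and of 13.13, 13.38 and 13.63 in AI-act. The ranges overlapped, and 15 of 16 AU rats lay above the AI mean. The difference was 0.19 (SE 0.05, adjusted p = 0.0264 by limma). Without AI-NS 8 it was 0.17 with an adjusted p of 0.0511, and without AU-NS 2 it was 0.18 with 0.0503.

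Phosphofructokinase makes fructose 1,6-bisphosphate, a step held in check by ATP and citrate. Pfkp (1372182_at) had 12.85, 12.95 and 13.17 in AU-act, against 12.74, 12.83 and 12.96 in AI-act, a difference of 0.11 (SE 0.03, adjusted p = 0.0343 by limma). Pfkm (1367864_at) had 11.97, 12.11 and 12.46 in AU-act, against 11.67, 12.03 and 12.13 in AI-act, a difference of 0.16 (SE 0.05, adjusted p = 0.0354 by limma). For each gene 7 of 16 AU rats lay above the highest AI rat, and the rest overlapped. Pfkp lost its call without any 1 of 9 arrays (AI-NS 1, AI-NS 8, AU-NS 2, AU-NS 3, AU-NS 4, AI-S 2, AI-S 5, AU-S 3 or AU-S 5) and Pfkm without any 1 of 9 (AI-NS 1, AI-NS 5, AI-NS 8, AU-NS 2, AI-S 5, AU-S 3, AU-S 4, AU-S 5 or AU-S 6). The highest adjusted p was 0.0625 for Pfkp and 0.0627 for Pfkm. Both also missed the threshold after median centring (0.0504 for Pfkp and 0.0517 for Pfkm) and after quantile normalization (0.119 and 0.078), as did Tpi1 after quantile normalization (0.0503). Pfkl, the liver form, was the most variable of the 3, with SDs of 0.24 in AU-act and 0.30 in AI-act and a difference of 0.13 that did not pass (adjusted p = 0.48).

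The other upper steps did not pass at their probesets of highest mean. Hexokinase (Hk1, 1386929_at), the main brain form and usually bound to mitochondria, differed by 0.12 (SE 0.06, adjusted p = 0.237). Aldolase A (Aldoa) differed by 0.12 (adjusted p = 0.116), and aldolase C (Aldoc), the brain form seen mostly in astrocytes and Purkinje cells, by 0.04 (adjusted p = 0.686). Glucose phosphate isomerase (Gpi) differed by 0.08 (adjusted p = 0.403).

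**Figure D2:**
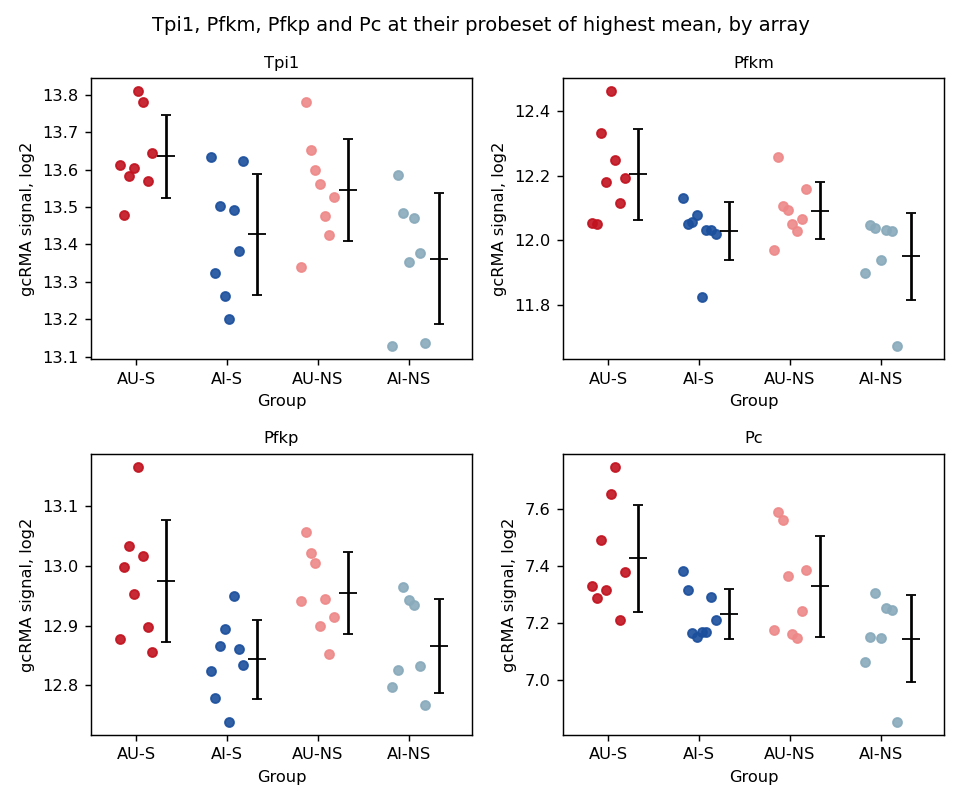
Signal of Tpi1, Pfkm, Pfkp and Pc on each array, log2, by phenotype and task; points are rats and bars give the mean and SD (n = 8, 8, 8 and 7), on axes that do not start at 0. The AU mean lies above the AI mean within each task for all 4 genes, and the points overlap.

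Pyruvate carboxylase (Pc, 1386917_at), which refills the citrate cycle with oxaloacetate, had a signal of 7.15, 7.35 and 7.75 in AU-act, against 6.85, 7.17 and 7.38 in AI-act. In AU-act 13 of 16 rats lay above the AI mean. The difference of 0.19 (SE 0.06, adjusted p = 0.0464 by limma) passed in 11 of the 31 fits that left out 1 array and missed the threshold in the other 20, with adjusted p up to 0.085. It missed without AI-S 3, 4, 5, 6 or 8, AI-NS 1, 3, 5, 7 or 8, AU-S 1, 3, 4, 5, 6 or 8, or AU-NS 2, 3, 4 or 8. Pc also missed it after median centring of the arrays (adjusted p = 0.0551) and with a trend and robust prior in limma (adjusted p = 0.0541). Astrocyte markers, measured for 7 of 8, averaged 12.70 in AU-act (12.59 to 12.83) and 12.66 in AI-act (12.43 to 12.76), and 0 of 7 passed at the probeset of highest mean. At a dimmer probeset 2 of the 7 were higher in AU-act, the gap junction protein Gja1 by 0.69 (adjusted p = 0.0293 by limma) and the glutamate transporter Slc1a3 by 0.20 (adjusted p = 0.019). Their part in the Pc difference was not tested.

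Lower glycolysis had 0 of 5 genes past the test and 5 of 5 positive (median 0.059). Gapdh, Pgk1 and Pgam1, which carry the triose phosphates to 2-phosphoglycerate, differed by 0.07, 0.06 and 0.06. Their SEs were 0.03 to 0.04 and none passed. Neuronal enolase (Eno2) differed by 0.08 (adjusted p = 0.385) and Eno1 by 0.04 (adjusted p = 0.799). The shared probeset of Pkm, which makes pyruvate, differed by 0.15 (SE 0.04, adjusted p = 0.044 by limma), and signal of the gene cannot be told from that of its pseudogene Pkm-ps20. Lactate dehydrogenase did not pass, with a difference of 0.04 for Ldha (95% interval -0.06 to 0.14) and of 0.04 for Ldhb (-0.08 to 0.15).

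None of the 5 pyruvate dehydrogenase genes passed at the probeset of highest mean, and 5 of 5 were positive (median 0.075). Pdha1 (1371380_at), the catalytic alpha subunit that the kinases phosphorylate, had 12.37, 12.47 and 12.57 in AU-act, against 12.19, 12.38 and 12.54 in AI-act. That is a difference of 0.09 (SE 0.03), and it missed the threshold (adjusted p = 0.074 by limma) with 15 of 16 AU rats above the AI mean. Pdhb, the beta subunit, differed by 0.08 (adjusted p = 0.214), and dihydrolipoamide dehydrogenase (Dld), which the complex shares with the 2-oxoglutarate dehydrogenase complex, by 0.08 (adjusted p = 0.118). The kinases Pdk1 and Pdk2 differed by 0.05 and 0.07 (adjusted p of 0.63 and 0.617).

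The citrate cycle had 0 of 11 genes past the test, 9 of 11 positive and the lowest median of the groups, 0.017. Dlst, a core subunit of the 2-oxoglutarate dehydrogenase complex, had 9.91, 10.08 and 10.37 in AU-act, against 9.68, 9.97 and 10.19 in AI-act, a difference of 0.13 (SE 0.05) that did not pass (adjusted p = 0.13 by limma). Its partner Ogdh differed by 0.09 (adjusted p = 0.183) and Sucla2, of the succinyl-CoA ligase, by 0.08 (adjusted p = 0.21). The isocitrate dehydrogenases ranged from 0.0028 (Idh3a) to 0.074 (Idh3b). The only negative differences of the 32 were in malate dehydrogenase 2 (Mdh2, -0.0059, 95% interval -0.10 to 0.09) and citrate synthase (Cs, -0.00039, 95% interval -0.12 to 0.12). Both signs changed with the processing.

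Other probesets of the same genes gave larger differences. Hk1 had 3 further probesets, the hexokinase controls, and all 3 were higher in AU-act. The 5′ control had 8.89, 9.29 and 9.68 in AU-act, against 7.46, 8.69 and 9.21 in AI-act, and differed by 0.67 (SE 0.12, adjusted p = 0.00158 by limma). The middle control differed by 0.36 (SE 0.06, adjusted p = 0.00158) and the 3′ control by 0.29 (SE 0.07, adjusted p = 0.00752), beside 0.12 at the brightest Hk1 probeset. Thus the value for hexokinase grew with the distance from the 3′ end among the controls. The 3′ minus 5′ difference of these controls averaged 1.41 ± 0.15 in AU-act (SD, n = 16) and 1.79 ± 0.27 in AI-act (SD, n = 15; two-sided permutation p = 4e-05).

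Pfkm and Pdha1 also passed at a dimmer probeset. Pfkm (1386961_at) had 11.15, 11.42 and 11.89 in AU-act, against 10.28, 11.08 and 11.22 in AI-act, a difference of 0.46 (SE 0.08, adjusted p = 0.00172 by limma). Here 13 of 16 AU rats lay above the highest AI rat, and how many of all probesets do so was not counted. The remaining Pfkm probeset, of low signal (1384632_at, mean 5.38 in AU-act and 5.41 in AI-act) differed by -0.02 (adjusted p = 0.862). Pdha1 (1383698_at) had 11.35, 11.64 and 11.94 in AU-act, against 10.92, 11.29 and 11.65 in AI-act, a difference of 0.35 (SE 0.06, adjusted p = 0.00158 by limma), with all 16 AU rats above the AI mean. With these, 6 of 32 genes were higher at 1 probeset or more, against 623 of 9037 named genes. The 5 differences of the Hk1 controls and of these Pfkm and Pdha1 probesets passed in all 31 fits that left out 1 array.

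Citrate synthase showed the same spread between probesets without passing. Its dimmest probeset (1369967_at) had 9.76, 9.86 and 10.41 in AU-act, against 8.44, 9.71 and 10.03 in AI-act, a difference of 0.31 (SE 0.10, adjusted p = 0.0687 by limma), and its brightest differed by -0.00039. The dimmer Pdk2 probeset (1386975_at) differed by 0.21 (adjusted p = 0.117), beside 0.07 at the brighter. Gapdh differed by 0.14 at its 5′ control, 0.11 at the middle and 0.07 at the 3′ control (adjusted p of 0.121, 0.299 and 0.33). For Mdh1 both probesets lay close to 0 (0.03 and 0.01).

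**Figure D3:**
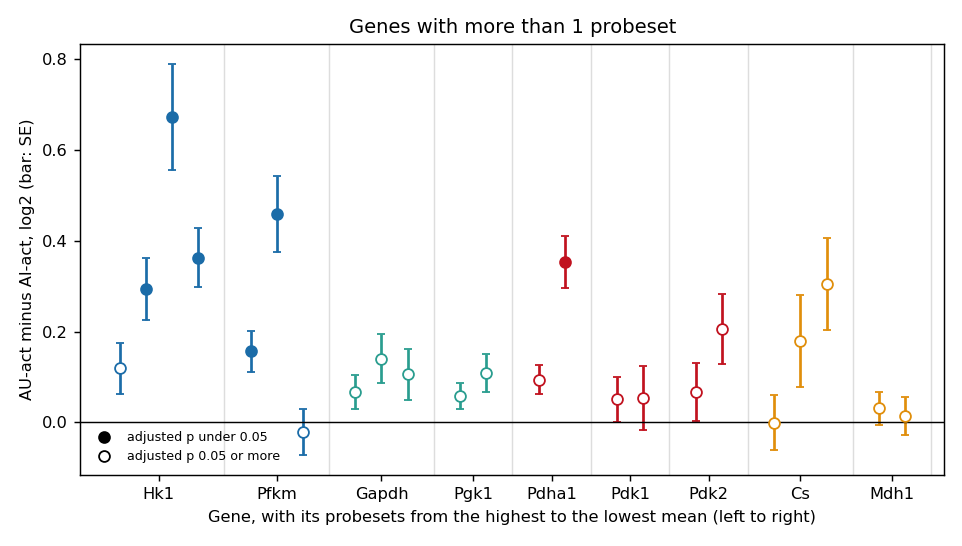
AU-act minus AI-act difference, log2, with its SE, at each probeset of the 9 genes that have more than 1, ordered from the highest to the lowest mean within a gene; filled points passed the test. Hk1, Pfkm, Pdha1 and Cs have probesets whose differences lie apart, from 0.12 to 0.67 in Hk1 and from -0.02 to 0.46 in Pfkm.

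The beta-actin control also differed between AU and AI rats within each task. The beta-actin difference averaged 2.74 ± 0.14 in AU-S and 2.92 ± 0.15 in AI-S (SD, n = 8 each; two-sided exact permutation p = 0.0232), and 2.67 ± 0.14 in AU-NS (SD, n = 8) and 2.91 ± 0.19 in AI-NS (SD, n = 7; two-sided exact permutation p = 0.00963). With the beta-actin difference as a covariate, 0 of 46 probesets and 0 of 32 genes passed, as was the case for 0 of all 16204 probesets. The covariate and the phenotype overlap, so such a fit also has less power. In this fit 26 of 32 genes had a positive difference, with a median of 0.049. Pfkp kept 0.11 (SE 0.04, adjusted p = 0.399 by limma), Tpi1 had 0.10 (SE 0.06), Pc 0.08 (SE 0.06) and the dimmer Pdha1 probeset 0.24 (SE 0.06, adjusted p = 0.321). With the mean of the Gapdh and beta-actin differences as a covariate, 0 of 46 probesets passed, beside 1 of all 16204. In that fit 25 of 32 genes were positive (median 0.057). With marker scores of dentate granule and CA1 cells in the fit the counts were 4 genes and 9 probesets, beside 993 of all 16204 probesets (6.13%), and 32 of 32 genes were positive. For the fits with covariates, here and below, the signs of all named genes were not counted. These sign counts therefore have no share to be read against.

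**Figure D4:**
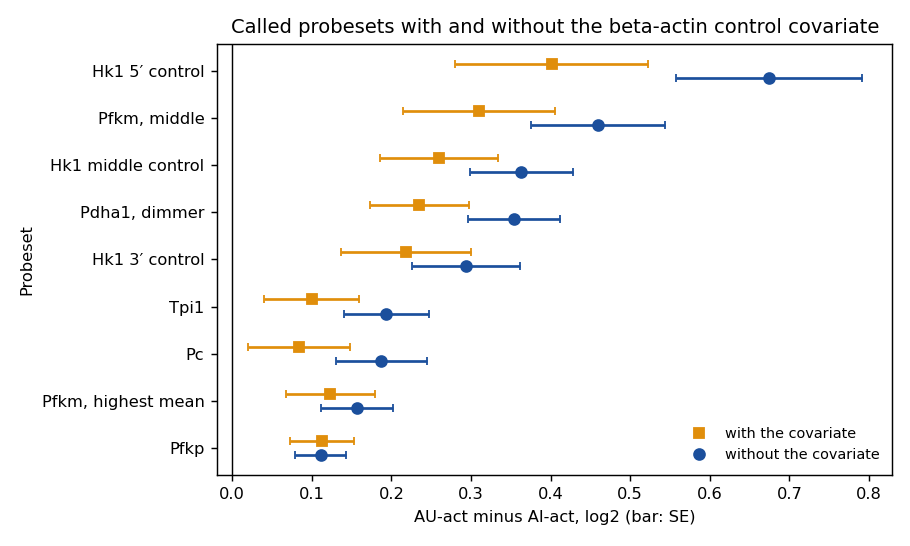
AU-act minus AI-act difference, log2, with its SE, for the 9 probesets that passed, with the beta-actin 3′ minus 5′ control difference as a covariate (squares) and without it (circles). The Hk1 5′ control lies at 0.40 with the covariate and 0.67 without it, Pfkp at 0.11 in both fits, and none of the 9 passed with the covariate.

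Markers of other cells were read over the same rats. Neuronal markers averaged 13.52 ± 0.03 in AU-act (13.45 to 13.57) and 13.41 ± 0.07 in AI-act (13.28 to 13.51). Of the 7, 5 had an unadjusted p under 0.05 with a positive difference, synaptotagmin 1 (Syt1) was higher in AU-act by 0.28 (adjusted p = 0.0139 by limma) and was the only one to pass at the probeset of highest mean, and Rbfox3, which marks neuronal nuclei, differed by -0.0042. At a dimmer probeset Nefl (0.14, adjusted p = 0.0143) and Thy1 (0.36, adjusted p = 0.0155) were also higher, which made 3 of 7 at any probeset. Of 6 choroid plexus and blood markers only albumin (Alb) was measured, and it was lower in AU-act, with a difference of -0.65 (adjusted p = 0.0139 by limma), with ranges of 5.61 to 7.74 in AU-act and 6.73 to 7.74 in AI-act. In the other lists 0 of 3 CA3, 0 of 5 CA1, 0 of 3 dentate granule, 0 of 4 microglial, 0 of 4 endothelial and 0 of 6 oligodendrocyte markers passed at the probeset of highest mean, and of 7 interneuron markers 1 was higher (Gad2, 0.48, adjusted p = 0.0391 by limma). At a dimmer probeset the CA3 marker Bok (0.23, adjusted p = 0.0353), the oligodendrocyte markers Mbp (0.16, adjusted p = 0.0256) and Mobp (0.39, adjusted p = 0.00313) and the interneuron marker Gad1 (0.55, adjusted p = 0.00255) were higher in AU-act. Counted at any probeset, 1 of 3 CA3, 2 of 6 oligodendrocyte and 2 of 7 interneuron markers were thus higher. The part of these markers in the metabolic differences was not tested.

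Within the spatial task the same question was asked of 8 AU-S and 8 AI-S rats, at an adjusted p of 0.1. No gene passed at its probeset of highest mean, against 0.0775% of all named genes as higher and 0.0885% in either direction, while 5 of 32 (15.6%) had an unadjusted p under 0.05, against 8.83% of all named genes, and 26 of 32 (81.2%) were positive (median 0.065), against 51.5%. The median was 0.030 without AI-S 5 and 0.085 without AI-S 1, and with the dentate granule and CA1 scores in the fit it was 0.025, with 21 of 32 positive. At any probeset 4 of 46 passed, in 3 genes and all higher in AU-S. Of all probesets 0.389% passed as higher and 0.413% in either direction. The passing probesets of the list included hexokinase controls. The dimmer Pdha1 probeset had 11.59, 11.66 and 11.88 in AU-S, against 11.17, 11.29 and 11.51 in AI-S, and the groups did not overlap. The difference was 0.39 (SE 0.06, adjusted p = 0.026 by limma), and it passed whichever array was left out. Pfkm at 1386961_at had 11.27, 11.60 and 11.77 in AU-S, against 10.84, 11.11 and 11.21 in AI-S, again without overlap. Its difference was 0.47 (SE 0.08, adjusted p = 0.0476 by limma), and it missed the threshold in 7 of 16 fits that left out 1 array (adjusted p up to 0.120). How many of all probesets separate AU-S from AI-S without overlap was not counted. These Pdha1 and Pfkm probesets were named because they passed on the same arrays, so the separation adds no support.

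The Hk1 5′ control differed by 0.68 (SE 0.12, adjusted p = 0.0515 by limma) and the middle control by 0.39 (SE 0.09, adjusted p = 0.0996). For both, 5 of 8 AU-S rats lay above the highest AI-S rat. The count of 4 became 1 without AI-S 3, AI-S 4, AI-S 6, AI-S 8, AU-S 3, AU-S 4 or AU-S 5, 2 without AI-S 2, and 5 without AI-S 1 or AI-S 7. The count was 0 with each control covariate. Of all 16204 probesets 1 passed with Gapdh and beta-actin, 0 with beta-actin and 0 with hexokinase. With the dentate granule and CA1 scores it was also 0, beside 1 of all 16204. The Pdha1 difference in that fit was 0.35 (adjusted p = 0.343 by limma). The dentate granule score averaged 10.06 ± 0.19 in AU-S (9.81 to 10.40) and 10.39 ± 0.34 in AI-S (9.71 to 10.77; SD, n = 8 each).

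**Figure D5:**
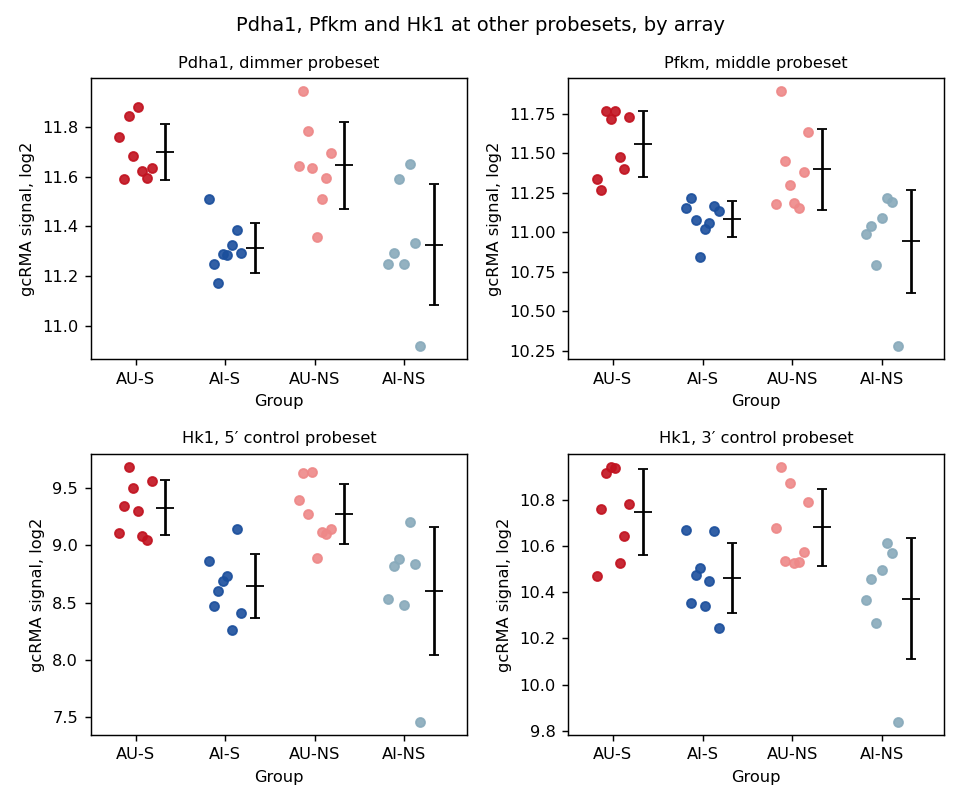
Signal of the dimmer Pdha1 probeset, the middle Pfkm probeset and the Hk1 5′ and 3′ controls on each array, log2, by phenotype and task; points are rats and bars give the mean and SD (n = 8, 8, 8 and 7), on axes that do not start at 0. AU-S and AI-S do not overlap for Pdha1 and Pfkm, and the array AI-NS 8 is the lowest of its group in all 4 panels. The probesets shown were picked because they passed in AU-act against AI-act on these arrays.

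In the non-spatial task 0 of 46 probesets passed, as did 0% of all probesets. The signs were positive for 30 of 32 genes (median 0.083), against 52.5% of all named genes, and 5 of 32 (15.6%) had an unadjusted p under 0.05, against 7.03% of all named genes. With the beta-actin difference as a covariate 17 of 32 genes were positive and 15 negative (median 0.0041), and with the mean of the Gapdh and beta-actin differences 20 were positive and 12 negative (median 0.013). Pdha1 (1383698_at) had 11.35, 11.64 and 11.94 in AU-NS, against 10.92, 11.29 and 11.65 in AI-NS, and the groups overlapped. The difference was 0.32 (SE 0.10, 95% interval 0.10 to 0.54, adjusted p = 0.254 by limma). Pfkm (1386961_at) differed by 0.45 (SE 0.14, adjusted p = 0.235) and the Hk1 5′ control by 0.67 (SE 0.20, adjusted p = 0.229). The SDs in AU-NS were 0.18 for Pdha1 and 0.27 for the Hk1 5′ control, against 0.24 and 0.56 in AI-NS. With the SAM statistic 3 of 46 probesets passed, beside 484 of all 16204 (2.99%). In a fit of all 4 groups that shares 1 estimate of the spread 5 of 46 passed, beside 163 of 16204 (1.01%).

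The difference between both tasks was tested by itself. No gene or probeset of the list passed for the interaction of phenotype and task, as was the case for 0% of all probesets. Among the 32 genes 1 (3.12%) had an unadjusted p under 0.05, against 2.5% of all named genes. The interaction, (AU-S minus AI-S) minus (AU-NS minus AI-NS), was 0.07 for the dimmer Pdha1 probeset (95% interval -0.17 to 0.31), 0.02 for Pfkm at 1386961_at (-0.32 to 0.36) and 0.01 for the Hk1 5′ control (-0.48 to 0.50). The smallest p was in Cs at its probeset of highest mean, with -0.25 (SE 0.12, adjusted p = 1 by limma). These intervals include a phenotype difference larger in the spatial task by up to 0.31, 0.36 and 0.50. They also include one larger in the non-spatial task, with interactions down to -0.17, -0.32 and -0.48.

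Between tasks within a phenotype 0 of 46 probesets passed, as did 0% of all probesets. In AI rats the gene of smallest p was Suclg1, the alpha subunit of succinyl-CoA ligase, with 11.69, 11.98 and 12.20 in AI-S, against 11.59, 11.79 and 11.95 in AI-NS, a difference of 0.17 (adjusted p = 0.862 by limma). In AU rats it was Dlst, with 10.03, 10.15 and 10.37 in AU-S, against 9.91, 10.05 and 10.12 in AU-NS, a difference of 0.14 (adjusted p = 0.605 by limma). Among the 32 genes 1 in AI (3.12%) and 2 in AU rats (6.25%) had an unadjusted p under 0.05, against 4.42% and 8.07% of all named genes. The AI-S and AU-S arrays of these comparisons also serve in the phenotype comparisons.

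The genes moved together from rat to rat within a group. AI-S 5 was the lowest of the 8 AI-S arrays in 27 of 32 genes (84.4%), where it was lowest in 28.6% of all named genes, and AI-S 1 was the highest in 24 of 32 (75%), where it was highest in 24.2% of all. In AI-NS the array AI-NS 3 was highest in 20 of 32 genes (62.5%, against 24.1% of all named genes) and AI-NS 8 lowest in 15 (46.9%, against 20.3%). In AU-NS the array AU-NS 1 was lowest in 23 of 32 (71.9%, against 27.8%) and AU-NS 2 highest in 16 (50%, against 12.2%). In AU-S the array AU-S 5 was highest in 15 genes (46.9%, against 20.7%) and AU-S 1 lowest in 13 (40.6%, against 28%). The beta-actin control difference was 2.72 on AI-S 1, the lowest of AI-S, and 2.91 on AI-S 5, near the AI-S mean of 2.92. It was 3.28 on AI-NS 8, the highest of all arrays, and 2.45 on AU-NS 2, the lowest of all. AI-NS 3 had 2.75, the lowest of AI-NS, and AU-NS 1 had 2.85, the highest of AU-NS. In AU-S the order was the other way, with 3.02 on AU-S 5, the highest of AU-S, and 2.58 on AU-S 1, the lowest of AU-S. The SD over rats was smaller in AU-act than in AI-act for 24 of 32 genes (75%), against 59.2% of all named genes, and its median over the genes was 0.11 in AU-act and 0.14 in AI-act. These are descriptions, and what makes the genes vary together was not tested. Without AI-S 1 the count of genes higher in AU-act was 6. Without AI-NS 8 or AU-NS 2 it was 0, and the count of probesets was 5. It was 1 without AI-NS 1, AI-S 5, AU-S 3 or AU-S 5 and 2 without AI-NS 5, AU-NS 3, AU-NS 4, AU-S 4 or AU-S 6.

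Genes next to the list in the pathway were read in the same way, and 36 of 55 were measured. Of these 1 was higher in AU-act and 0 were lower, where 2.05% of all named genes passed as higher and 0.31% as lower. At any probeset 3 of 36 were higher, beside 623 of 9037 named genes. Both counts lie near those shares. Sdha, the flavoprotein subunit of succinate dehydrogenase, averaged 12.67 in AU-act and 12.52 in AI-act, a difference of 0.15 (adjusted p = 0.029 by limma), and the other subunits Sdhb, Sdhc and Sdhd differed by 0.03, -0.03 and 0.0021 without passing. At other probesets Pfkfb3, the enzyme that makes the phosphofructokinase activator fructose 2,6-bisphosphate, differed by 0.56 (adjusted p = 0.0122 by limma), beside 0.11 at its brightest (adjusted p = 0.0985). Slc2a3, the neuronal glucose transporter, differed by 0.64 (adjusted p = 0.00267 by limma), beside 0.02 at its brightest (adjusted p = 0.833). The kinases Pdk3 and Pdk4 differed by -0.12 and -0.22 (adjusted p of 0.243 and 0.386), the glucose transporter Slc2a1 by 0.0080 and the pyruvate carriers Mpc1 and Mpc2 by -0.02 and -0.10, none of which passed.

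The promoters of the genes were searched for 3 short motifs in the 250 bases before the start of transcription, from RefSeq on the GRCr8 assembly, for 33 entries of 29 genes. The GC box core GGGCGG, the site of Sp family factors, was found on either strand in 18 of 33 (54.5%), against 30.5% of all 33469 promoters of the same length. The hypoxia response core ACGTG was in 12 of 33 (36.4%), against 16.6%, and TATAAA, the TATA box, in 2 of 33 (6.06%), against 12.9%. The promoters of Pdha1, Pfkp, Tpi1 and Pfkm are shown because each was higher in AU-act at 1 probeset or more and has a single entry, whereas Hk1, also higher, has 2 entries. They are printed 5′ to 3′ on the strand of the gene, with the GC box core in capitals on either strand.
Pdha1, chrX:38508908-38509157, plus strand: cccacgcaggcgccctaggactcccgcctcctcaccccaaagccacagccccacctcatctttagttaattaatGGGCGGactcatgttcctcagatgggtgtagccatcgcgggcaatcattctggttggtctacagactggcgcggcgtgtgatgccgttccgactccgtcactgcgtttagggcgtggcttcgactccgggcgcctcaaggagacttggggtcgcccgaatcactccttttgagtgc
Pfkp, chr17:68639563-68639812, plus strand: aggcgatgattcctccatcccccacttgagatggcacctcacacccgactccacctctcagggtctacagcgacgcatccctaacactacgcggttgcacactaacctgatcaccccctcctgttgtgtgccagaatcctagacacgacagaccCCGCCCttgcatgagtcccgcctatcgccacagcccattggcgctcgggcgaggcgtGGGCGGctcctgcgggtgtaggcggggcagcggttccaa
Tpi1, chr4:159305089-159305338, minus strand: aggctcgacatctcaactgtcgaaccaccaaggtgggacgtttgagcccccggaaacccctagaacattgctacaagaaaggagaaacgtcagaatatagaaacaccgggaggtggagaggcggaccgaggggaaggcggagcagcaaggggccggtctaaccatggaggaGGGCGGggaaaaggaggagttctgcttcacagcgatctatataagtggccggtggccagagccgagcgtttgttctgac
Pfkm, chr7:131113849-131114098, plus strand: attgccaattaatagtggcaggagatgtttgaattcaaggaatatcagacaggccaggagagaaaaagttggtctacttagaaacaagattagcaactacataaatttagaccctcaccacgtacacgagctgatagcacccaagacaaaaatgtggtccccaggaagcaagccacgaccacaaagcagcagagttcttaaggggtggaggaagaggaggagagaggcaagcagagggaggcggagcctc
The core starts 176 bases before the start site in Pdha1, 96 and 39 before it in Pfkp and 79 before it in Tpi1. In Pfkm these letters are not in the window. A match is a run of letters and was not tested as a binding site.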

How the data were processed

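CA3 RNA of 31 rats was measured on Affymetrix rat arrays. The authors hybridized 1 array per rat, left out 1 AI-NS array on quality control and normalized with gcRMA (version not given in the sources used here). The deposited log2 values run from 1.31 to 16.12. Every probeset mean was at least 5.00, so the study's lower limit of 4 removed none. There are no counts behind array values, so precision rests on how many rats were measured. Groups came from the sample titles.

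Differences were fitted with limma 3.58.1 in R 4.3.3 (lmFit, eBayes, two-sided), and p-values were adjusted by Benjamini-Hochberg over the whole table of 16204 probesets. An adjusted p of 0.05 was required for AU-act against AI-act and 0.1 elsewhere, which are the study's false discovery rates. The study's own statistic, SAM (100 permutations), was an alternative. The scripts were tested on simulated data. Control differences were tested by permutation with scipy 1.17.1, exactly within a task and with 100000 resamples over both.

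The genes, pathway lists and markers were chosen with earlier results of these data known. Picked for description were genes that passed, or the 8 with the smallest adjusted p if fewer did. Also picked were genes with another probeset that passed and the 3 with the lowest differences. Lowest, median and highest signals are left out for some, among them Aldoa, Dld, Idh3a, Mdh2 and Cs at its brightest probeset. Probesets with several genes in the array annotation were not assigned to 1 gene. Related genes (phosphofructokinases, aldolases, enolases and Gapdh and Pgk1 copies) can share probe sequence.

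Alternatives changed the intensity limit (none, or 6), the prior (trend and robust), the scaling (centring on medians, quantiles), the weights of arrays, the replicate number (as a block), the covariates (RNA controls, marker scores), the fit (all 4 groups together, or a term for task) and the choice of probeset, or left out each array in turn. With no intensity limit the fit repeats the main one, since every probeset mean already lay above the limit. The hexokinase covariate was chosen after seeing the data. Behavioural runs and hybridization batches are not used here, so their part was not tested. Figures used Python 3.11 and matplotlib 3.10.9.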

Additional observations from a re-analysis of the deposited data

Results flagged for a closer look

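In 12 of 184 sets of values (46 probesets in 4 groups) 1 array lay far from the rest of its group by Dixon's criterion, and chance alone gives about 1 in 20. Of these, 4 were on AI-NS 8, which was low for the Hk1 5′ control (7.46, next 8.48), Pfkm at 1367864_at (11.67, next 11.90), the Gapdh 5′ control (13.69, next 14.09) and Eno1 (12.30, next 12.65). AU-NS 1 was low for Pdhb (11.92, next 12.08), Idh3b (11.50, next 11.71) and Mdh2 (11.34, next 11.57). AI-NS 4 was low for Cs at its brightest probeset (12.15, next 12.59) and for the dim Pfkm probeset 1384632_at (4.95, next 5.29). AI-S 5 was low for Pfkm at 1367864_at (11.82, next 12.02). AU-S 5 was high for Eno2 (13.59, next 13.38) and Idh2 (10.23, next 9.98).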

How the results depend on the processing

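The direction of AU-act against AI-act held for the 9 probesets that passed under every alternative, but the calls did not. The count of genes higher (4) was 1 after median centring, 1 after quantile normalization, 0 with the replicate block, 0 with the Gapdh and beta-actin covariate, 0 with beta-actin alone, 0 with hexokinase (itself read from Hk1), and 0 to 6 with arrays left out. The count of probesets higher (9) was 5 with the block, 0 with each of these 3 covariates, and 5 to 13 with arrays left out. In AU-S against AI-S the count of probesets (4) was 0 with the block, 0 with the same 3 covariates, 0 with the marker scores, and 1 to 5 with arrays left out; 3 genes were higher at any probeset. In AU-NS against AI-NS the count (0) was 3 by SAM and 5 in the fit of all 4 groups. With the 3 control covariates at most 1 of all 16204 probesets passed in AU-act against AI-act or AU-S against AI-S. Why the counts moved was not tested. Samples of equal number mostly did not deviate together (r from -0.39 to 0.31), though in AU-NS and AI-NS 2 of 7 matched their own number best. The main fits therefore treat the rats as unpaired. Such correlations cannot exclude a shared run or session.

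Signs turned for values near 0. In AU-act against AI-act, Mdh2 was 0.0059 with the marker scores and 0.072 with hexokinase, and -0.0209 to 0.0125 with arrays left out. Cs was 0.00052 with the marker scores, 0.079 with hexokinase, 0.00631 in the fit of all 4 groups, 0.0020 with a task term, and -0.0456 to 0.0220 with arrays left out. In AU-S, Mdh2 was 0.113 with hexokinase. In AU-NS with Gapdh and beta-actin, Pfkm (1367864_at) was -0.0054, Pc -0.0191 and Pdha1 (1371380_at) -0.0062. With beta-actin alone, Tpi1 was -0.0130, Pfkm -0.0117, Pc -0.0415, Pdha1 -0.0197, Aldoa -0.0040 and Mdh2 -0.0052, and with the marker scores Mdh2 was -0.0209. Of all values under alternatives, 2186 kept their side of the threshold or moved little. These include every value with no intensity limit, a setting that repeats the main fit. A further 128 lost a call, 10 gained one, 39 counts moved and 40 turned sign.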
